A study of Mus musculus with 8 samples.

Results

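The levels of 6 transcripts of secreted salivary proteins were followed across 8 arrays of mouse salivary tissue, namely Abpd, Abpg, Crisp1, Crisp3, Cst10 and Wfdc12. They were chosen by gene name, as every probe that the array files give one of these names, which found 1 probe for each of 6 genes among the 16362 genes tested. The names were selected on their large differences between untreated tumour and parotid gland, so values of that contrast, and of comparisons that share its arrays, are given as a description with no test. Abpd and Abpg are now Scgb2b20 and Scgb2b26. RNA was hybridised to Agilent whole genome arrays with 1 dye. The tumours were mouse salivary tumours induced by AKT, a kinase downstream of PI3K. The groups were untreated tumour (n = 2), tumour given rapamycin, an inhibitor of the mTOR kinase, for 3 days (n = 1) or for 14 days (n = 2), untreated normal parotid gland (n = 2) and untreated normal submandibular gland (n = 1). The labels used here give no strain, age or sex, no promoter or cell type behind the AKT transgene, no rapamycin dose, and no word on whether a tumour arose in parotid or submandibular tissue. Nor do they say that replicate arrays hold RNA of different animals, and p-values therefore cover the spread between these samples alone, which may be technical.

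All 6 encode small proteins that salivary gland cells secrete or that resemble such proteins. Abpd and Abpg encode subunits of salivary androgen-binding protein, a secretoglobin in which an alpha subunit pairs with a beta- or gamma-like subunit, and which is known as a cue in mate recognition in mice. Crisp1 and Crisp3 encode cysteine-rich secretory proteins of the CAP superfamily, known from epididymis and salivary gland and for responding to androgen. Cst10 encodes a cystatin, a family of inhibitors of cysteine proteases, and was described in cartilage cells. Wfdc12 encodes a small protein with a whey acidic protein (WAP) domain, a fold shared by several protease inhibitors and antimicrobial proteins. In mice the parotid gland is made mainly of serous acini, while the submandibular gland also holds granular convoluted ducts that enlarge under androgen and secrete growth factors and kallikreins.

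Close relatives among these genes were split between the glands, so the stretch just upstream of each is shown for both pairs of relatives. The 250 bases before the annotated start are from RefSeq on GRCm38.p6, all on the minus strand, and run 5′ to 3′ toward the gene. Capitals mark bases that differ from, or have no partner in, the other gene of the pair in a global alignment. The Crisp1 stretch lies at chr17:40319208-40319457 and the Crisp3 stretch at chr17:40242289-40242538.
Crisp1: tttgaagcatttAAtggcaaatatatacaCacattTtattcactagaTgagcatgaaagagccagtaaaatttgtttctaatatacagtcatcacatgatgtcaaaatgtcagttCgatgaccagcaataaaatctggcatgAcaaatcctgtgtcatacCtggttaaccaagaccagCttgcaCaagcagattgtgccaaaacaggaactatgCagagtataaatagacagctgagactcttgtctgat
Crisp3: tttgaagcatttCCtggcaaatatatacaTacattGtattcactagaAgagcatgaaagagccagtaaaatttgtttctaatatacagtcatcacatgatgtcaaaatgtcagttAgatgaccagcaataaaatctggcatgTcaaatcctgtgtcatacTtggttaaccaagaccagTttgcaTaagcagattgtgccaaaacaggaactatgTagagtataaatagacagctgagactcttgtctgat
The Crisp1 and Crisp3 stretches were 95.6% identical, with 239 of 250 bases the same, 11 substituted and no gap. The Abpd stretch lies at chr7:33366320-33366569 and the Abpg stretch at chr7:33944986-33945235.
Abpd: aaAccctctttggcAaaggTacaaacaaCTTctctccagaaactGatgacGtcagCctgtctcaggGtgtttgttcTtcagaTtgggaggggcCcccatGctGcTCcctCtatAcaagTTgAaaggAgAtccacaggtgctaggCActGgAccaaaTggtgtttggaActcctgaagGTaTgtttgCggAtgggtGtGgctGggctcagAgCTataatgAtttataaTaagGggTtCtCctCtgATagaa
Abpg: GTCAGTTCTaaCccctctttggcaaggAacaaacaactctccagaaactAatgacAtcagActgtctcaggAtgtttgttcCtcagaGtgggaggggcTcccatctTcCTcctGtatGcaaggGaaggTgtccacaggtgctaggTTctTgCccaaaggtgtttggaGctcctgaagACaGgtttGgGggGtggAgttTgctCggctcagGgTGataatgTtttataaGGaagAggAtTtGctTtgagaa
The Abpd and Abpg stretches were 76.3% identical over 262 aligned columns, with 38 substitutions and 24 gap columns. The pairs of unrelated members had identities of 47.6% to 53.5%. The letters TATAAA, searched on both strands, were found at −31 in Crisp1 and Crisp3 on the strand of the gene, and at −30 in Abpd and −29 in Abpg on the opposite strand. They were present in 12.4% of all 32851 promoters of this length. The letters CAGCTG, a form of the E-box, were found at −21 in both Crisp promoters and in 13.0% of all promoters. The letters TGTTCT, the core letters of the androgen receptor motif, were found at −179 in Abpd and in 16.1% of all promoters. These matches are letters only, and no binding was measured here.

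Each member was read by 1 probe with 1 spot per array, and no spot of these 6 was left out or saturated. On mm8, the assembly of the array files, the probes for Abpd and Abpg lie at chr7:33073243-33073302 and chr7:33652002-33653070. Those for Crisp1 and Crisp3 lie at chr17:39761668-39764808 and chr17:39696034-39696093. Those for Cst10 and Wfdc12 lie at chr2:149101478-149101537 and chr2:163881600-163881659. The spans of 1069 bases for Abpg and 3141 bases for Crisp1 are longer than the 60 bases of the others. Whether a probe also binds the transcript of a close relative was not tested. All 6 members passed the filter on dim probes, each through the groups in which it was bright.

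The level of a transcript is given as log2 of its background-subtracted signal relative to the 75th percentile of its array, so levels are compared between arrays and not between probes. The 75th percentile itself ranged from 145 to 972 signal units and was highest on both untreated tumour arrays. Between 43.2% and 58.4% of spots were well above background, the scanner software's call of detection, and the number of arrays limits the precision. Of 2 slides, the first carried parotid replicate 1, day 14 replicate 1 and the pair of untreated tumours, and the second carried the other 4 arrays. Xist, which coats the inactive X chromosome, was at 4.46 in parotid replicate 1 and not well above background in replicate 2, where the mean of 3 Y-linked genes was 0.43 against −5.82. Between the untreated tumours, Xist was high in replicate 2 (4.19) and the Y-linked mean in replicate 1 (0.15). Both day 14 arrays carried both signals, with Xist at −2.10 and −2.40 and a Y-linked mean of 0.70 and 0.45. The single submandibular and day 3 arrays carried Xist alone, which was well above background on each. Their Y-linked means were −5.02 and −5.83, with no Y-linked gene well above background. Comparisons with these arrays thus also differ in sex-linked transcripts, whose part in the member values was not tested.

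Abpg and Crisp3 had their highest level in the submandibular gland. Abpg was at 9.17 in the submandibular gland and at −1.92 and 2.73 in the parotid replicates, a log2 difference of 8.77 ± 1.65 (SE of the pooled fit). Crisp3 was at 8.24 in the submandibular gland and at 2.18 and 1.76 in the parotid replicates, a log2 difference of 6.27 ± 0.33. Both transcripts were well above background in both glands, with the single submandibular array above each parotid array. On the linear scale the submandibular level was 436-fold that of parotid for Abpg and 77.1-fold for Crisp3. In bulk tissue such as this, fewer cells of a type and less RNA per cell cannot be told apart.

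Abpd, Crisp1 and Cst10 had their highest levels in the parotid gland. Abpd was at 5.84 and 10.31 in parotid and not well above background in the submandibular gland, so that it was at least 2087-fold lower there. Cst10 was at 9.31 and 10.61 in parotid and likewise not well above background in the submandibular gland, at least 7701-fold lower. Crisp1 was at 8.43 in both parotid replicates and at −0.78 in the submandibular gland, a log2 difference of −9.21 ± 1.54. Of these 3, Crisp1 alone was detected in both glands, and its submandibular level was 593-fold below that of parotid. The bounds set the mean of the bright group against the lowest signal called well above background on the dim array, or the probe's own signal where that was higher. They hold for the processed signal only, and an adjusted p printed beside a bound belongs to the fitted log2 difference. With normexp background correction, which adds an offset of 50 to every signal, the fitted difference was smaller than the bound in all 14 member differences given as a bound. It was −9.74 for Abpd and −12.0 for Cst10 between the glands.

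Wfdc12 was high in both glands. It was at 9.58 and 10.57 in parotid and at 9.53 in the submandibular gland, a log2 difference of −0.54 ± 1.73. The submandibular array lay just below the lower parotid array, and the difference was smaller than its standard error. The related pairs Crisp1 with Crisp3 and Abpd with Abpg thus each had a transcript brightest in parotid and another brightest in the submandibular gland. The submandibular side of every such statement is 1 array.

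**Figure D1:**
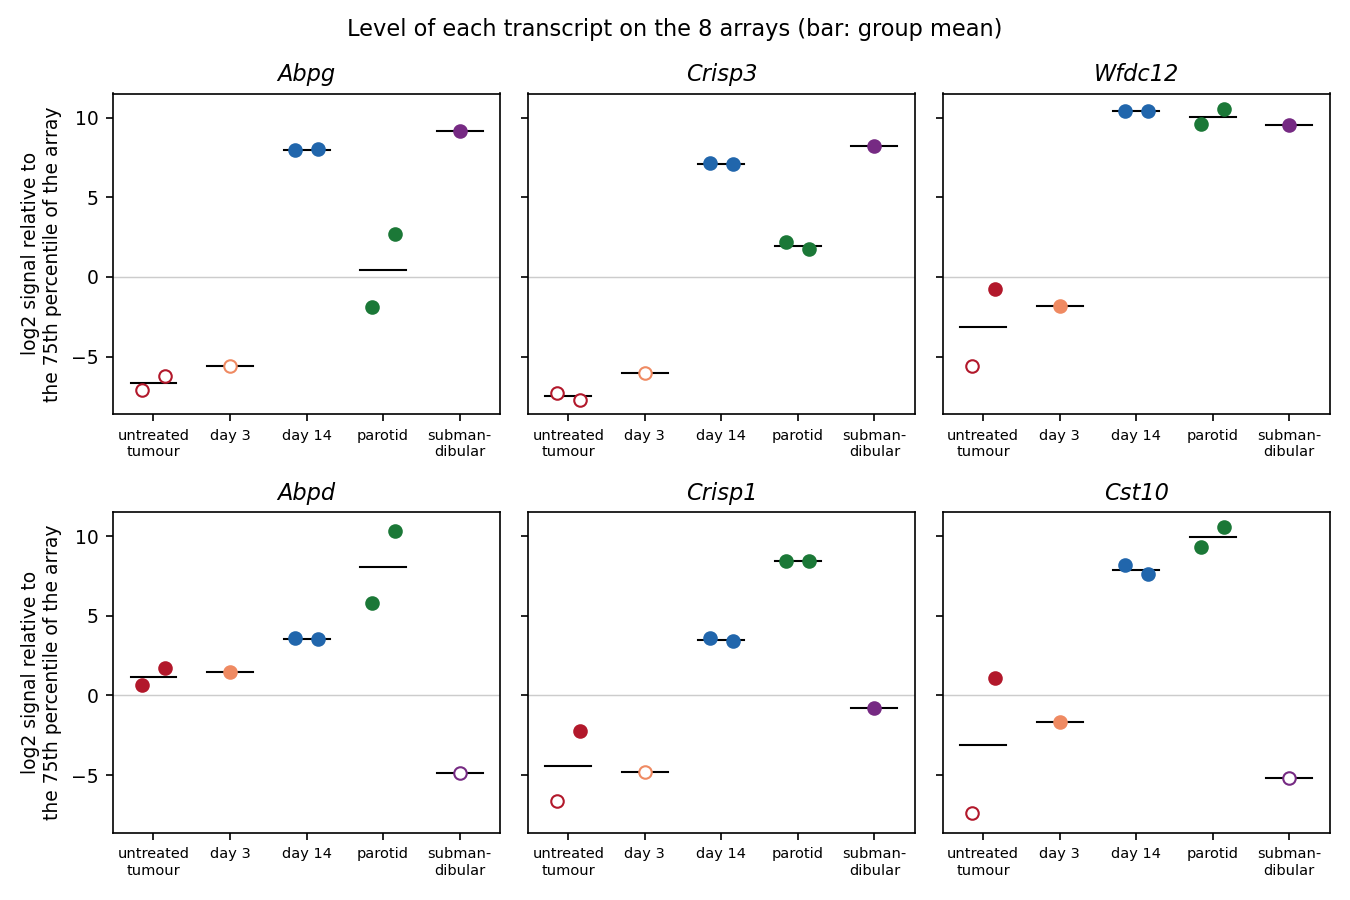
Log2 signal relative to the 75th percentile of the array (y axis) for each of the 6 transcripts in untreated tumour, day 3, day 14, parotid and submandibular gland; points are arrays, open points were not well above background and bars are group means. Abpg and Crisp3 peak in the submandibular gland, Abpd, Crisp1 and Cst10 in parotid, and Wfdc12 is between 9.53 and 10.57 in both glands.

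The parotid replicates did not match for the androgen-binding protein subunits. Abpd was 22.3-fold and Abpg 25.0-fold higher in parotid replicate 2 than in replicate 1. Cst10 was 2.46-fold, Wfdc12 1.98-fold and Crisp3 1.34-fold apart, and Crisp1 was equal to 2 decimals of log2. The replicates also differed in slide and in sex-linked transcripts, as given above, and these cannot be told apart here. The mean of 4 skeletal muscle markers was −4.18 in replicate 1 and 2.32 in replicate 2, and its part in the result was not tested. The Abpg difference between the glands was 11.09 without parotid replicate 2 and 6.45 without replicate 1, with the submandibular gland higher either way. The Abpd difference was −10.69 without parotid replicate 2 and −15.17 without replicate 1.

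In untreated tumours all 6 transcripts were below both parotid arrays. Over all 16362 genes, limma called 20.3% lower and 18.7% higher in this contrast, from which nothing is read about the members because it chose them. The share of all genes that lay below both parotid arrays was not counted. Abpg was not well above background in either tumour, at least 54.6-fold below parotid. Crisp3 was likewise not detected in either tumour, at least 162-fold below parotid. Their fitted log2 differences of −7.08 ± 1.35 and −9.48 ± 0.27 were −3.16 and −4.47 with normexp background correction. Within slide 1, which leaves out parotid replicate 2, the Abpg difference was −4.76. Wfdc12 was at −5.61 (not well above background) and −0.74 in the tumours, a log2 difference from parotid of −13.25 ± 1.41. Crisp1 was at −6.61 (not well above background) and −2.22, a difference of −12.85 ± 1.26. These transcripts lie at or near background in the tumours, and Wfdc12 and Crisp1 were detected in replicate 2 only.

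Cst10 was the most uneven member between the tumours. It was at −7.36 in replicate 1, not well above background, and at 1.10 in replicate 2, at least 75-fold higher. Its log2 difference from parotid was −13.09 ± 2.43, or −8.86 without tumour replicate 1 and −17.32 without replicate 2. Wfdc12 and Crisp1 were also higher in tumour replicate 2, by at least 21.0-fold and 7.54-fold. Wfdc12 was at −10.81 without tumour replicate 1 and −15.68 without replicate 2, and Crisp1 at −10.65 and −15.04. The mean of 10 parotid acinar markers was −1.44 in tumour replicate 1, with 7 of 10 detected, and 1.57 in replicate 2, with 10 of 10 detected. Its part in the difference between the tumours was not tested.

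Abpd was the member that stayed above background in both untreated tumours. It was at 0.64 and 1.74 there, against 5.84 and 10.31 in parotid, a log2 difference of −6.89 ± 1.31. Without parotid replicate 1 the difference was −9.13, and without parotid replicate 2 it was −4.65. The Abpd tumour level was at least 17.6-fold above that of the submandibular gland, where the transcript was not detected. The other submandibular comparisons ran lower in tumour. Abpg was at least 23800-fold and Crisp3 at least 12475-fold below the submandibular array, Wfdc12 differed by −12.71 ± 1.73 and Crisp1 by −3.63 ± 1.54. With normexp background correction the log2 differences from the submandibular gland were −11.46 for Abpg, −10.65 for Crisp3, 3.11 for Abpd and −1.85 for Crisp1, against −15.85, −15.74, 6.04 and −3.63 as fitted. Cst10 straddled its submandibular level of −5.20, at which it was not detected.

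After 3 days of rapamycin every transcript was far below the gland in which it was brightest. Abpd was at 1.45, Cst10 at −1.69 and Wfdc12 at −1.80 on the single day 3 array, each between the 2 untreated tumour values. Crisp1 was at −4.81 and not well above background, also between the tumour values. Abpg and Crisp3 were not well above background at day 3, nor in any untreated tumour, so no fold is given. No member therefore lay above both untreated tumours in a measured level at day 3. The log2 differences from untreated tumour were 0.26 ± 1.61 for Abpd, 1.44 ± 2.97 for Cst10, 1.37 ± 1.73 for Wfdc12 and −0.39 ± 1.54 for Crisp1, all smaller than their standard errors. Each changed sign when 1 untreated tumour was left out, to −0.29 for Abpd, −2.79 for Cst10 and −1.06 for Wfdc12 without replicate 1, and to 1.81 for Crisp1 without replicate 2.

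After 14 days of rapamycin all 6 transcripts were well above background on both arrays and above both untreated tumours. Limma called 24.3% of the 16362 genes higher and 23.5% lower at day 14 than in untreated tumour. This contrast shares the tumour arrays with the one that chose the members, so their values are a description. The share of all genes that lay above both untreated tumours was not counted, so nothing is read from the separation of the 6. Abpg was at 8.0 and 8.01 at day 14, at least 10591-fold above untreated tumour, with a fitted log2 difference of 14.68 that was 10.25 with normexp background correction. Crisp3 was at 7.13 and 7.08, at least 5700-fold above, with a fitted log2 difference of 14.61 that was 9.48 with normexp background correction. Both had been undetected in untreated tumour and at day 3.

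Wfdc12 was at 10.41 on both day 14 arrays, a log2 difference of 13.59 ± 1.41 from untreated tumour. Cst10 was at 8.18 and 7.63, a difference of 11.04 ± 2.43, which was 6.81 without untreated tumour replicate 1 and 15.26 without replicate 2. Crisp1 was at 3.58 and 3.44, a difference of 7.92 ± 1.26, which was 5.72 and 10.12 without those replicates in turn. Abpd, the member with the smallest gap, was at 3.59 and 3.54, a difference of 2.38 ± 1.31. For Wfdc12 the value was 11.15 without untreated tumour replicate 1 and 16.02 without replicate 2, and for Abpd it was 2.93 without untreated tumour replicate 2 and 1.83 without replicate 1. The day 14 replicates differed by at most 0.55 for any member, with a median of 0.05. The member medians were 1.14 between the parotid and 2.75 between the untreated tumour replicates, the last with undetected values included. Over all genes the median absolute difference was 0.26 between the day 14, 0.58 between the parotid and 0.23 between the untreated tumour replicates.

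Day 14 against day 3 shares no array with the contrast that chose the members, although the pooled spread also uses those arrays. It was tested with limma over all genes, with Benjamini-Hochberg adjustment. The members were chosen with earlier results of these data known. The mean of the 10 acinar markers was 0.86 at day 3, between the untreated tumours, and 8.48 on both day 14 arrays. The count of members called is therefore not independent of that choice. It is not independent of the filter on dim probes either. Each member passed it through groups that include day 14, which favours a call of higher there. Abpg, Crisp1 and Crisp3 were not well above background at day 3. A filter on all 8 arrays removes every member, so none is called with it. Of the 6 members 4 were called higher and 0 lower at an adjusted p below 0.05, where 10.9% of all genes were called higher and 11.8% lower. Abpg was at least 4159-fold higher (adjusted p = 0.00407), and Crisp3 at least 2238-fold higher (adjusted p = 0.00013). Crisp1 was at least 184-fold higher (adjusted p = 0.0146). Wfdc12 had a log2 difference of 12.22 ± 1.73 (adjusted p = 0.00645). For each of these transcripts both day 14 arrays lay above the single day 3 array, and the share of all genes that did so was not counted.

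Cst10 and Abpd were not called between day 3 and day 14. Cst10 differed by 9.60 ± 2.97 (adjusted p = 0.0642) and Abpd by 2.12 ± 1.61 (adjusted p = 0.371), and again both day 14 arrays lay above the day 3 array. The Crisp1 and Wfdc12 calls were lost when either day 14 replicate was left out, with limma adjusted p of 0.0919 and 0.0864 for Crisp1 and 0.0574 and 0.0562 for Wfdc12. Cst10 was called under other settings, for example with quantile normalization (adjusted p = 0.0481) and without untreated tumour replicate 1 (adjusted p = 0.00152) or replicate 2 (adjusted p = 0.00143). Over 16 alternatives the limma adjusted p ran from 0.000257 to 0.0919 for Crisp1, from 1.21e-05 to 0.0574 for Wfdc12 and from 0.00102 to 0.216 for Cst10. The single day 3 array was assumed to vary like the replicated groups.

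Set against the glands, the day 14 tumours held transcripts of both types at once. Against parotid, Abpg was 194-fold and Crisp3 35.2-fold higher, while Abpd was 22.7-fold, Crisp1 30.4-fold and Cst10 4.15-fold lower. For Wfdc12 the day 14 and parotid arrays overlapped, with a difference of 0.34 ± 1.41. They did not overlap for the other 5. The share of all genes without overlap was not counted, so nothing is read from this. The Cst10 difference of −2.05 ± 2.43 was smaller than its standard error. Within slide 1, day 14 minus parotid was 9.92 for Abpg and −2.25 for Abpd, and within slide 2 it was 5.28 and −6.77.

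Day 14 against the submandibular gland was also tested, since neither group was in the contrast that chose the members. The choice of members with earlier results known limits this count too. So does the filter on dim probes, which each member passed through groups that include day 14. This favours a call of higher at day 14 for a transcript undetected in the submandibular array. Of the 6 members 2 were called higher and 0 lower, where 5.65% of all genes were called higher and 3.28% lower. The transcripts called were Cst10 (at least 1855-fold higher, adjusted p = 0.0470) and Abpd (at least 91.7-fold higher, adjusted p = 0.0316), both undetected in the submandibular array. Crisp1 was higher by 4.29 ± 1.54 on the log2 scale without passing the test (adjusted p = 0.139). Abpg (−1.17 ± 1.65, adjusted p = 0.703), Crisp3 (−1.13 ± 0.33, adjusted p = 0.0839) and Wfdc12 (0.88 ± 1.73, adjusted p = 0.787) did not pass either. Abpg and Crisp3 at day 14 thus lay 2.25-fold and 2.19-fold below the submandibular array.

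Both calls against the submandibular gland depended on single arrays. The Abpd call was lost without untreated tumour replicate 1 (limma adjusted p = 0.0558) or replicate 2 (0.0558), and without day 14 replicate 1 (0.183) or replicate 2 (0.162). The Cst10 call was lost without day 14 replicate 1 (limma adjusted p = 0.228) or replicate 2 (0.191), and with slide as a fixed block (0.104), no intensity trend (0.0680) or the percentile taken over probes detected on all arrays (0.0507). Over 16 alternatives the limma adjusted p ran from 0.000208 to 0.183 for Abpd and from 0.00184 to 0.228 for Cst10. Leaving out a tumour array changes only the shared spread here, not the difference itself.

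**Figure D2:**
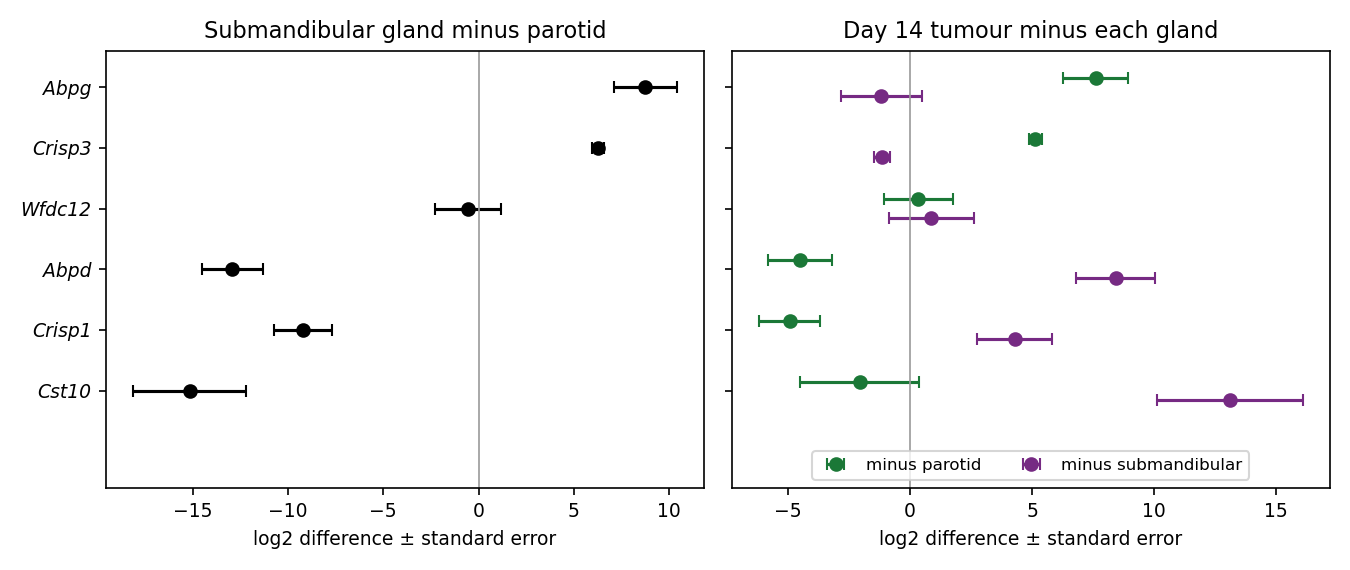
Log2 difference ± standard error of the pooled fit (x axis) for each transcript (y axis), with submandibular gland minus parotid on the left and day 14 tumour minus each gland on the right. At day 14 Abpg and Crisp3 lie near 0 against the submandibular gland and above parotid, while Abpd and Crisp1 lie below parotid and above the submandibular gland; Abpd and Cst10 were not detected in the submandibular array, so their values against it are not bounds.

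By order of level, the members took 4 courses, and not every step of an order was separated. The steps between submandibular gland and day 14 for Abpg, and between parotid and day 14 for Cst10, were smaller than their standard errors. Neither Abpg nor Crisp3 passed the test of day 14 against the submandibular gland. For Abpg and Crisp3 the order was submandibular gland, day 14, parotid, with day 3 and untreated tumour not detected. For Abpd and Crisp1 it was parotid, then day 14, then tumours and the submandibular gland, in which Abpd was undetected and Crisp1 lay above both untreated tumours. For Cst10 the order was parotid, day 14, then the tumours around day 3, with the submandibular gland undetected. For Wfdc12 day 14, parotid and submandibular gland all lay between 9.53 and 10.57, and the day 3 and untreated tumour arrays lay far below.

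The other subunits of androgen-binding protein divided between the glands as Abpd and Abpg did. Abpa (now Scgb1b27), an alpha subunit, was at 9.95 in the submandibular gland, 5.89 and 6.63 in parotid and 10.05 and 10.04 at day 14. Abpb, a beta subunit, was at 9.60, then 7.05 and 7.27, then 9.85 and 9.58 in the same order. In contrast, Apbh (Scgb1b2), Abpe (Scgb2b2) and Abpz (Scgb2b24) were not well above background in the submandibular gland. Abpa and Abpb thus had the Abpg order in the glands, and Apbh, Abpe and Abpz that of Abpd. Neither difference between the glands passed for Abpa (3.69 ± 1.16, limma adjusted p = 0.178) or Abpb (2.44 ± 0.90, limma adjusted p = 0.242). Nor did the fitted differences of Apbh (at least 1815-fold lower, limma adjusted p = 0.0669), Abpe (at least 1671-fold lower, 0.0778) and Abpz (at least 469-fold lower, 0.158).

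Apbh, Abpe and Abpz differed between the parotid replicates, as both Abpd and Abpg did. Apbh was at 5.95 and 9.80, Abpe at 4.65 and 10.86 and Abpz at 2.62 and 9.61, higher in replicate 2 by 14.4-fold, 73.8-fold and 127-fold. Abpa and Abpb were 1.67-fold and 1.16-fold higher there. The 22.3-fold gap of Abpd and the 25.0-fold gap of Abpg fall within the range of the first 3. At day 14 Apbh was at 3.54 and 4.09, Abpe at 2.70 and 2.51 and Abpz at 0.87 and 0.67, below both parotid replicates, as Abpd was. Day 14 against parotid did not pass for Apbh (−4.06 ± 2.16, limma adjusted p = 0.262), Abpe (−5.15 ± 2.26, limma adjusted p = 0.188) or Abpz (−5.34 ± 2.16, limma adjusted p = 0.158). Abpz and these groupings were singled out after their values were seen.

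**Figure D3:**
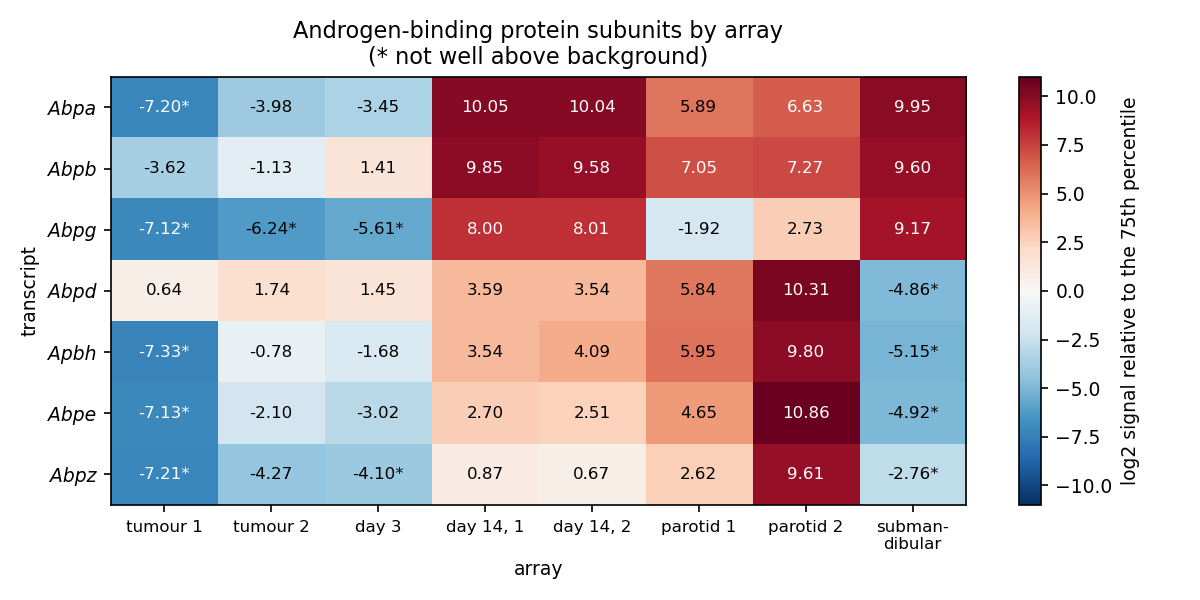
Log2 signal relative to the 75th percentile (colour and printed value) of 7 androgen-binding protein subunits (rows) on the 8 arrays (columns), to be read along rows since levels of different probes are not compared; an asterisk marks arrays on which the probe was not well above background. Abpa, Abpb and Abpg are bright in the submandibular gland, whereas Abpd, Apbh, Abpe and Abpz are undetected there. Abpg, Abpd, Apbh, Abpe and Abpz are brighter in parotid replicate 2 than in replicate 1 by 14.4-fold to 127-fold, and Abpa and Abpb by 1.67-fold and 1.16-fold.

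The wider families of these proteins held transcripts that rose and transcripts that fell. Of 54 relatives on the array, members left out, 30 passed the filter. In untreated tumour against parotid limma called 6 of the 30 higher and 13 lower, with a median log2 difference of −1.49 against 0.02 for all genes. At day 14 against untreated tumour 15 were called higher and 5 lower, with a median of 1.57 against 0.02. The count of 15 was 9 without untreated tumour replicate 1, 9 without day 14 replicate 1 and 8 without day 14 replicate 2. These shares can be read beside the 18.7% and 20.3%, and the 24.3% and 23.5%, of all genes given above. The 2 comparisons share the untreated tumour arrays.

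Among 7 other secretoglobins 1 rose and 6 fell in untreated tumour, and 6 rose and 0 fell at day 14. Abpe (−12.37 ± 2.26, limma adjusted p = 0.00778), Apbh (−11.93 ± 2.16, 0.00745) and Abpa (−11.85 ± 0.95, 0.000461) had the largest falls, each detected in 1 of 2 tumours. The secretoglobin that rose was Scgb3a2, known from airway epithelium, at least 5.84-fold higher in untreated tumour (limma adjusted p = 0.00417) and named after its values were seen. At day 14 Abpa rose by 15.63 ± 0.95 and Abpb by 12.09 ± 0.73 (limma adjusted p = 0.000228 for both).

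Among 5 other CAP domain proteins 2 fell in untreated tumour, and 2 rose and 1 fell at day 14. Pi16, a membrane-anchored CAP protein, fell by 5.65 ± 0.72 (limma adjusted p = 0.00206) and rose by 4.42 ± 0.72 at day 14 (limma adjusted p = 0.00414). Crispld1, detected in 1 of 2 parotid arrays, was at least 4.78-fold lower in untreated tumour (limma adjusted p = 0.00198) and at least 8.90-fold higher at day 14 (limma adjusted p = 0.000841). The fall at day 14 was in Crispld2, by 2.17 ± 0.29 (limma adjusted p = 0.0021), also named after its values were seen.

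Among 9 other cystatins 5 rose and 1 fell in untreated tumour, and 2 rose and 3 fell at day 14. Csta (now Csta1), an inhibitor of cathepsins in stratified epithelium, was at least 9.69-fold higher in untreated tumour (limma adjusted p = 0.00218) and at least 9.30-fold lower at day 14 (limma adjusted p = 0.00309). Ahsg, the plasma protein fetuin-A, was higher by 3.85 ± 0.56 in untreated tumour (limma adjusted p = 0.00333) and at least 7.30-fold lower at day 14 (limma adjusted p = 0.0015). The cystatin that fell in untreated tumour was Cst3, cystatin C, by 2.73 ± 0.25 (limma adjusted p = 0.000683).

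Among 9 other WAP domain proteins 4 fell and 0 rose in untreated tumour, and 5 rose and 1 fell at day 14. Wfdc15 (now Wfdc15b) fell by 6.03 ± 0.74 in untreated tumour (limma adjusted p = 0.00183) and rose by 5.95 ± 0.74 at day 14 (limma adjusted p = 0.00161). Wfdc21, detected in 1 of 2 parotid arrays, was at least 4.06-fold lower in untreated tumour (limma adjusted p = 0.0128), and Wfdc1 was called lower there (limma adjusted p = 0.00898) although no tumour or parotid array detected it. Wfdc15a, named after its values were seen, was undetected in untreated tumour, parotid and day 14 alike, so 2 of the 4 falls and 1 of the 5 rises were called between groups at background. Wfdc1 was at least 19.3-fold higher at day 14 (limma adjusted p = 0.000696). The fall was in Slpi, a secreted inhibitor of neutrophil elastase, with a log2 difference of −2.29 ± 0.40 (limma adjusted p = 0.00558), named after its values were seen.

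**Figure D4:**
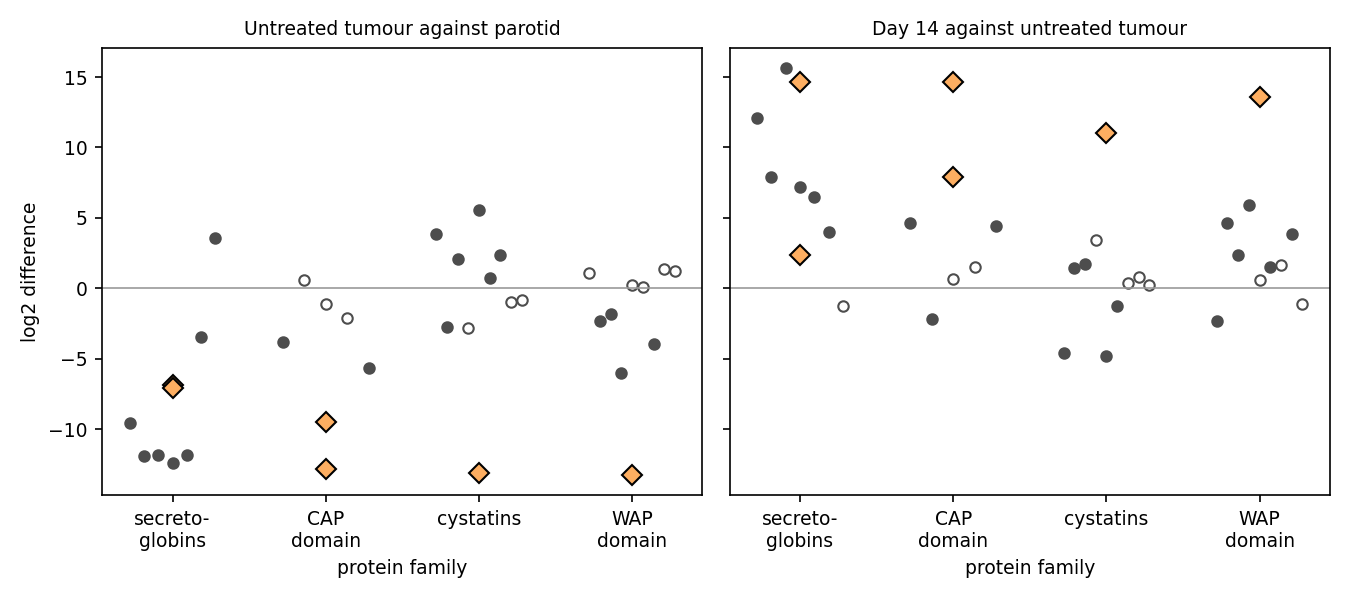
Log2 difference (y axis) of the 30 tested relatives (circles, filled where limma called them at an adjusted p below 0.05) and the 6 members (diamonds, no test) by protein family, in untreated tumour against parotid and in day 14 against untreated tumour. Circles of the secretoglobins lie mostly with the diamonds, whereas those of the cystatins lie on both sides of 0.

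Markers of gland cells were low and high on the same arrays as the members. All 10 parotid acinar markers fell in untreated tumour and all 10 rose at day 14, led by Prb1 (−13.20 ± 1.42, limma adjusted p = 0.00114) and Pip (−12.69 ± 2.56, limma adjusted p = 0.0112) in untreated tumour. Of 7 submandibular granular duct markers 6 fell in untreated tumour and 7 rose at day 14, led in untreated tumour by the kallikreins Klk1 (−13.82 ± 1.21, limma adjusted p = 0.000583) and Klk1b4 (−13.31 ± 0.84, limma adjusted p = 0.000238). The granular duct list is not specific to the submandibular gland. Klk1 was at 8.06 and 8.86 in parotid against 10.0 in the submandibular gland, and Klk1b4 at 6.58 and 7.83 against 9.68. Egf, at 2.77 and 3.08 against 8.03, was further apart. The acinar list is not specific to parotid either. Prol1 differed by 5.83 ± 1.22 between submandibular gland and parotid (limma adjusted p = 0.0707), and Car6, Pip, Aqp5, Bhlha15 and Lpo by −0.48 to 0.39, whereas Bpifa2, Dcpp1 and Prb1 were called lower in the submandibular gland. The mean of the granular duct list was 9.14 and 9.15 at day 14 and 8.74 in the submandibular gland, against 3.41 and 4.24 in parotid and −5.23 and −3.49 in untreated tumour. The mean of the acinar list was 8.48 on both day 14 arrays, 7.80 and 9.09 in parotid and 4.63 in the submandibular gland. On the day 3 array the acinar mean was 0.86, with 9 of 10 detected, and the granular duct mean was −2.76, with 5 of 7 detected. The part of cell content in the member values was not tested.

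**Figure D5:**
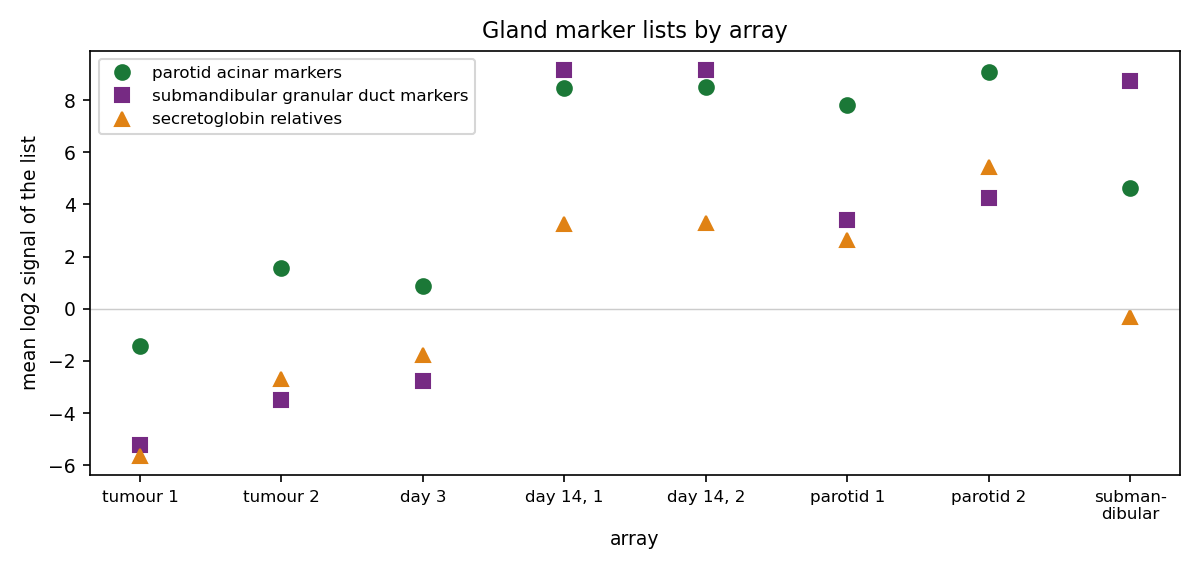
Mean log2 signal relative to the 75th percentile (y axis) of the parotid acinar markers, the submandibular granular duct markers and the 7 secretoglobin relatives on each array (x axis). Day 14 arrays reach 9.14 and 9.15 for granular duct markers, near the 8.74 of the submandibular gland, and the 3 tumour arrays before day 14 are low for all 3 lists.

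Other cell types differed as well between the arrays on which the members were high and low. In untreated tumour against parotid limma called lower 3 of 3 T cell markers, 3 of 4 B and plasma cell markers, 3 of 4 adipocyte, 2 of 4 myoepithelial and 2 of 4 skeletal muscle markers, and higher 2 of 2 neutrophil markers. The neutrophil list had 5 genes on the array, but Mpo, Camp and Ngp did not pass the filter on dim probes. Its 2 tested markers were S100a8 and S100a9. Of 5 duct epithelium markers 1 was called higher and 1 lower. At day 14 against untreated tumour it called higher 3 of 3 T cell, 4 of 4 B and plasma cell, 4 of 4 adipocyte, 3 of 4 myoepithelial and 4 of 4 skeletal muscle markers, and lower 2 of 2 neutrophil markers, with 2 duct markers higher and 2 lower. The skeletal muscle mean was 5.64 and 5.83 at day 14, above its −4.18 and 2.32 in parotid and −3.02 in the submandibular gland. The part of these cell types in the member values was not tested. Xist and 3 Y-linked genes were called in neither comparison, where the replicates of untreated tumour and of parotid differed in both signals. In day 14 against day 3 and against the submandibular gland, Xist differed by −6.67 and −5.35. The Y-linked median differed by 7.50 and 6.62.

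Over the 8 arrays the transcripts with the most similar courses differed between members. These Pearson correlations are descriptions over n = 8 arrays that share groups and scaling. Genes with names of clone or locus type, such as Rik or LOC names, were passed over. The closest genes below are thus the closest among the other genes. Abpg and Crisp3 correlated with each other at 0.97, Crisp1 with Cst10 at 0.91 and Abpd with Cst10 at 0.83, whereas Abpd with Abpg was at −0.06 and Crisp1 with Crisp3 at 0.61. Outside the members, Wfdc12 was closest to Car6 (0.999), a secreted carbonic anhydrase, Klk1 (0.994) and Myrip (0.993). Cst10 was closest to Smr3a (0.997), Chia1 (0.993) and Prb1 (0.978), a salivary proline-rich protein. Crisp1 was closest to Dusp26 (0.992), Amy2a5 (0.989), an amylase, and Foxred2 (0.980).

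The submandibular-high transcripts had other neighbours. Crisp3 was closest to Pgk2 (0.996), Kcnt1 (0.994) and Kndc1 (0.993), and Abpg to Nrip3 (0.998), Tfcp2l1 (0.997) and Vmn1r201 (0.996). Abpd had the lowest best match, with Npm3 (0.967), Fscn3 (0.952) and Cldn9 (0.944). None of the closest 3 was shared between members.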

How the data were processed

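Per the labels' protocols, Trizol gave total RNA, of which 300 ng went into the labelling. Per the file headers, the authors scanned the arrays with Feature Extraction 10.7.3.1 and deposited the background-subtracted intensity of each spot, not scaled between arrays. The authors' deposited table of log2 values (medians 5.52 to 5.57) served as an alternative; its scaling is not given in the sources used here, and the correlation of a column with the scanner values of its array was 0.971 to 0.980.

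The log2 intensity, with the 75th percentile of the array subtracted, was analysed for 41174 probes, without spots called non-uniform. A probe was kept where all arrays of 1 or more groups had it well above background, and the brightest stood for a gene, which gave 16362 genes. Accessions named 23374 probes through RefSeq, symbols 6733 and synonyms 2919, and 8148 kept the name in the files. limma 3.58.1 in R 4.3.3 fitted a mean per group over all 8 arrays with an intensity trend (3 residual and 3.28 prior degrees of freedom). Adjusted p-values are two-sided Benjamini-Hochberg values over all genes, with a threshold of 0.05. The fit was tested on simulated data. Promoters were aligned with Biopython 1.88.

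The members and lists were chosen with earlier results of these data known. Named were the 6 members, from each family the 3 called relatives with the largest difference in untreated tumour against parotid and the 2 largest at day 14 against untreated tumour, the 2 largest of each marker list (given here for the gland lists, with counts for the others), and 3 correlated genes per member. Exceptions are stated. Alternatives are given in the closing section.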

Additional observations from a re-analysis of the deposited data

How the results depend on the processing

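The number of members called at day 14 against day 3, 4 in the setting reported, was 4 to 6 under the other settings except 0 with a filter on all 8 arrays, which removes probes dim in any group and left 11036 genes, and ranged from 2 to 6 when single replicates were left out. The number called at day 14 against the submandibular gland, 2 as reported, was 0 with that filter, 1 with the percentile over probes detected on all arrays, 1 without the intensity trend, 1 with slide as a fixed block and 6 with only the arrays of the groups compared, where the spread rests on the day 14 pair alone. It ranged from 0 to 3 when single replicates were left out. With no filter, 53 relatives were tested: 34 were called lower and 7 higher in untreated tumour against parotid, where 44% of all 27066 genes were lower and 12.7% higher, and 36 higher and 5 lower at day 14 against untreated tumour, where 46.4% were higher and 15% lower. With the filter on all 8 arrays, 12 were tested: 3 were higher and 3 lower in untreated tumour (18.7% and 20.4% of all genes), and 5 higher and 3 lower at day 14 (22.5% and 25.5%). The count of relatives higher at day 14 ranged from 8 to 19 when single replicates were left out.

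The log2 difference of Crisp3 between day 3 and untreated tumour, with no group detected, was 1.44 as reported, −0.037 with quantile normalization, −0.64 with normexp background correction and −0.023 with the deposited log2 values; the cause was not tested. Counted over members and alternatives, the tested member differences kept their side of the threshold in 182 values, lost it in 13 and gained it in 21. These include the setting with only the arrays of the groups compared, which the ranges of adjusted p given above leave out. Over 858 values of member differences under the alternatives, 14 had another sign than reported, 11 at day 3 against untreated tumour, 2 for Wfdc12 at day 14 against parotid and 1 for Cst10 in untreated tumour against the submandibular gland. The other scalings moved the median of all genes by −0.16 to 0.24 on the log2 scale. No paired analysis was possible because the groups compared share fewer than 2 replicate numbers in the labels, where a number 1 stands on an untreated tumour only. Single arrays at day 3 and in the submandibular gland, and probes near background in the tumours, limit what these values can show.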
